A study of Homo sapiens with 12 samples.

Results

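The members described here are the regions enriched for a cytosine mark that lie in long intergenic noncoding RNA genes, meaning regions that overlap a gene body (deposited distance to a gene of 0) and carry a symbol beginning with LINC and a digit. In the table of 5-hydroxymethylcytosine (5hmC), 1127 of 327949 regions met this rule, in 201 of 17716 genes with a region in their body. In the table of 5-methylcytosine (5mC), 221 of 65535 listed regions met it, in 94 genes, and 92 of the 203 LINC genes appeared in both tables. Of the 5hmC members, 53 also carried the symbol of another gene, and 1074 carried LINC symbols alone. All members were measured in HL-60, a human cell line from a promyelocytic leukemia whose cells take on features of neutrophils in dimethyl sulfoxide (DMSO).

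Differentiated cells had been kept in 1.5% DMSO (211 mM) for 7 days and sorted as viable, CD11b+ cells, and undifferentiated cells were sorted as viable, CD11b- cells from culture without DMSO. CD11b is a surface integrin of maturing myeloid cells. Genomic DNA of 3 biological replicates per state was divided between antibodies against 5mC (MeDIP) and against 5hmC (hMeDIP), giving 12 libraries, so that both marks were measured on the same DNA preparations. The groups are sorted fractions of 1 cell line, and differentiation and DMSO exposure cannot be told apart. The tables hold DNA marks and no RNA, so the cell states could not be checked against marker transcripts.

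Long intergenic noncoding RNAs (lincRNAs) are spliced transcripts, usually with a cap and a poly(A) tail, made from genes that lie between protein-coding genes. Some act on the neighbouring gene, some act elsewhere in the cell, some host microRNAs or were later found to encode a small protein, and for most no function is known. 5mC at the CpG sites of a promoter is generally associated with silencing, while 5hmC is the product of 5mC oxidation by TET enzymes and is typically found at enhancers and along transcribed gene bodies. Antibody capture gives the amount of DNA that carries the mark, not the percentage of modified cytosines. It also varies with CpG density and with the number of copies of a locus.

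CpG content differed widely at the starts of these genes. Among the LINC genes with starts in the RefSeq table (build GRCh38.p14), the median of 165 windows of 300 bases (250 before to 50 after the start) was 6 CpG sites, against 14 over the 35116 windows of all genes. The hexamer GGGCGG, the core of the GC box, was present on either strand in 30.3% of LINC windows and in 45% of all windows; it contains a CpG itself. The 6 windows below were matched by symbol and belong to genes with a single listed start. LINC00029 had the largest rise in 5hmC at a start region and LINC00851 the largest fall. LINC00592, LINC00668 and LINC00620 had a start region past the threshold for both marks, and LINC00441, the divergent transcript of RB1, is the most CpG-rich of the set shown. Capitals mark CpG sites. The windows lie at chr20:63036979-63037278 (minus strand, 8 CpG sites, LINC00029), chr20:18378799-18379098 (plus strand, 4, LINC00851), chr12:52210680-52210979 (plus strand, 4, LINC00592), chr18:6929820-6930119 (minus strand, 20, LINC00668), chr3:13650471-13650770 (plus strand, 31, LINC00620) and chr13:48303653-48303952 (minus strand, 48, LINC00441).
LINC00029: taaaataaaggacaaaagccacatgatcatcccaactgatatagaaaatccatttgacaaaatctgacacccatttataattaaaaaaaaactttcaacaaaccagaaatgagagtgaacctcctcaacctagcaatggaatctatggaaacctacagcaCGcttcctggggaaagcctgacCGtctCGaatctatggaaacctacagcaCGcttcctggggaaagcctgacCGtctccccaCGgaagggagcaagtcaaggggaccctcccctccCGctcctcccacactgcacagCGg
LINC00851: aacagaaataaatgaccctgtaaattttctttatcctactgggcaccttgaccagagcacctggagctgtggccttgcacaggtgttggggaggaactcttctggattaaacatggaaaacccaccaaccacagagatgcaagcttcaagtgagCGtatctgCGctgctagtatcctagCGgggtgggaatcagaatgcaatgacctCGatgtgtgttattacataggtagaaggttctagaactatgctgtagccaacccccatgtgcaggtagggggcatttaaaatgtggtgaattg
LINC00592: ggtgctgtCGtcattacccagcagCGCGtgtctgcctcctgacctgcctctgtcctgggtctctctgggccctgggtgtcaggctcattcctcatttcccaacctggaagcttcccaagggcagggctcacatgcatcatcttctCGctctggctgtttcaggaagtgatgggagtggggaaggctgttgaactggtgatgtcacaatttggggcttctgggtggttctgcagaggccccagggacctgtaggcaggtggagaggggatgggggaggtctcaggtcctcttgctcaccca
LINC00668: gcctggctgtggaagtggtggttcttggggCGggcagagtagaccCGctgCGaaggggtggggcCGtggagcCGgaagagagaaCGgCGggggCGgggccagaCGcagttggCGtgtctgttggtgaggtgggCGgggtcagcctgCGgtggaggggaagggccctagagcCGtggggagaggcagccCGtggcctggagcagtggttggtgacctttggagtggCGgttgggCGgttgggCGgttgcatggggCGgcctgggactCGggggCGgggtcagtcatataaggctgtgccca
LINC00620: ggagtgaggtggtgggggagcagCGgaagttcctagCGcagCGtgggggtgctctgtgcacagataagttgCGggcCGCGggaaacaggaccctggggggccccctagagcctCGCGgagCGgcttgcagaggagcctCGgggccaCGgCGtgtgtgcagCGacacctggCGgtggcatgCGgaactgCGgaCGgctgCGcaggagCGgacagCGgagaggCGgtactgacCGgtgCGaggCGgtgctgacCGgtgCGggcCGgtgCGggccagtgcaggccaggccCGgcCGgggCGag
LINC00441: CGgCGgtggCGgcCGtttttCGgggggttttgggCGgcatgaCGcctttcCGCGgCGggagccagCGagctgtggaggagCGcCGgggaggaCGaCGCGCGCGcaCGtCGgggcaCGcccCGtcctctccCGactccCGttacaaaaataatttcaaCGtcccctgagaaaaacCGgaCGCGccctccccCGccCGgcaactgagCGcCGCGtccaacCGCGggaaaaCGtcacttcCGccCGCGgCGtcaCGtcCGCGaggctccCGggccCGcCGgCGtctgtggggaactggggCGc
GGGCGG occurred 7 times in the LINC00668 window, 3 times in that of LINC00441 and in none of the other 4, counting both strands. The deposited regions are on GRCh37 (hg19), so their overlap with these GRCh38.p14 windows was not checked by position.

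Each LINC region was compared between the states by edgeR's quasi-likelihood F test, fitted over the whole table of its mark with Benjamini-Hochberg adjustment. All adjusted p-values for regions and genes below come from this test with n = 3 libraries per state, and a change is called at an adjusted p under 0.05. Log2 fold changes are differentiated over undifferentiated. Levels are read counts scaled to a common library size (CPM) by the trimmed mean of M-values (TMM), computed over all regions of a table for single regions and over all gene sums for genes, so that region and gene levels are on different scales. Deposited counts per library ranged between 13010267 and 32495733 in differentiated and between 15688562 and 33693880 in undifferentiated 5hmC libraries, and between 7940755 and 9670011 in differentiated and between 6076100 and 6851769 in undifferentiated 5mC libraries, where only listed regions are counted.

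Under TMM scaling, 5hmC at LINC gene regions was more often higher than lower in differentiated cells. Of the 1127 regions, all of which passed the low-count filter, 363 rose, 210 fell and 554 did not pass the test. In the whole 5hmC table, 50.3% of regions were called, 27.0% as higher and 23.3% as lower, so the share of LINC regions called (50.8%) was close to that of the background, and the split between directions differed: 32.2% rose and 18.6% fell. All 3 differentiated libraries were above the undifferentiated ones at 345 LINC regions and below them at 245, with 52.2% of all regions separated in this way, 26.2% upward and 25.9% downward. The median log2 fold change was 0.15 at LINC regions, against −0.04 over all regions. Regions in the bodies of other genes had a median of −0.07, with 24.5% called higher and 24.8% lower. Intergenic regions, with a median of −0.01, had 29.3% higher and 21.8% lower, and regions in the bodies of genes named as antisense transcripts had a median of 0.09, with 30.5% higher and 21.3% lower. On this measure LINC regions lay nearer to antisense and intergenic regions than to the bodies of other genes, which is a description and was not tested.

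The direction of the split depended on the scaling, while the offset from all regions was nearly the same. With library totals in place of TMM, 186 LINC regions rose and 347 fell, the median over all regions moved to −0.25 and that of LINC regions to −0.06. The LINC median stood 0.19 above the median of all regions with TMM scaling and 0.18 above it with library totals. The share of 5hmC counts in LINC regions does not depend on TMM and was lower in differentiated cells (0.472% against 0.533%). Without the single region of LINC00861 it was 0.265% against 0.273%, with the tests of both given further below. DESeq2 called 226 LINC regions, 176 higher and 50 lower. With library totals or DESeq2, rises and falls over all regions were not counted, so these LINC splits have no background beside them. The number called by edgeR was 360 without differentiated replicate 3 and 358 without undifferentiated replicate 1, against 573 with all 6.

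**Figure D1:**
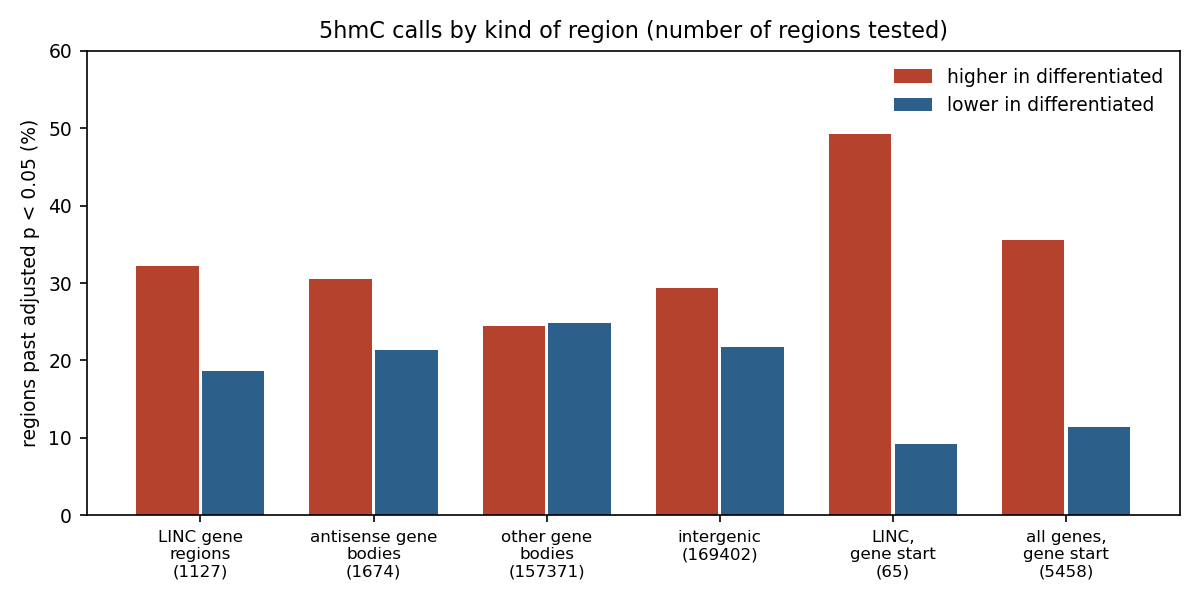
Percentage of 5hmC regions past an adjusted p of 0.05 (vertical axis) that were higher (red) or lower (blue) in differentiated cells, by kind of region (horizontal axis, with the number tested). Red exceeds blue at LINC regions (32.2% against 18.6%) and, among the kinds shown, by the widest margin at LINC regions holding a gene start (49.2% against 9.23%).

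Rises outnumbered falls further at gene starts and CpG islands. Among the 65 LINC regions that contained an annotated start, 32 rose and 6 fell (49.2% and 9.23%), with a median log2 fold change of 0.42. Of these 65 regions, 53 carried LINC symbols alone, and in the rest the start may be that of another gene. Start regions of all genes had 35.5% higher and 11.4% lower with a median of 0.31 (5458 regions), the same direction. Of the 13 LINC regions in a CpG island 8 rose and none fell, with a median of 0.49, while among 3861 island regions in all gene bodies 40% rose and 3.47% fell. Island regions were few: 1.15% of LINC regions, against 1.73% of all regions, and the median distance to the nearest island was 110583 bases for LINC regions and 38163 bases over the table. Away from islands by more than 2000 bases, 340 of 1062 LINC regions rose and 202 fell (32% and 19%, against 24.3% and 25.6% of such regions in all gene bodies).

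Summed over their regions, 70 of the 201 LINC genes rose, 37 fell and 94 did not pass the test. Among all 17716 genes 50.1% were called, 24.3% as higher and 25.8% as lower. LINC genes were called higher in 34.8% and lower in 18.4% of cases, with a median log2 fold change of 0.16, against 0.01 over all genes. The differentiated libraries were above all undifferentiated ones at 75 LINC genes and below them at 45, and 56.2% of all genes were separated in this way (26.6% upward and 29.6% downward). With library totals, 66 LINC genes rose and 41 fell, with DESeq2 57 rose and 17 fell, and without the first undifferentiated library 66 in all were called, against 107 with all 6. Rises and falls over all genes were not counted in these alternatives, so their LINC splits have no background beside them. The split differed with the number of regions per gene. Of the 78 LINC genes with a single region 23 rose and 23 fell (29.5% each, against 24% and 18.6% of all genes with a single region). Of the 62 with 2 to 4 regions 20 rose and 7 fell (32.3% and 11.3%, against 23.4% and 21.6%). Of the 61 with 5 or more regions 27 rose and 7 fell (44.3% and 11.5%), whereas 24.9% of all genes with 5 or more regions rose and 30.8% fell.

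**Figure D2:**
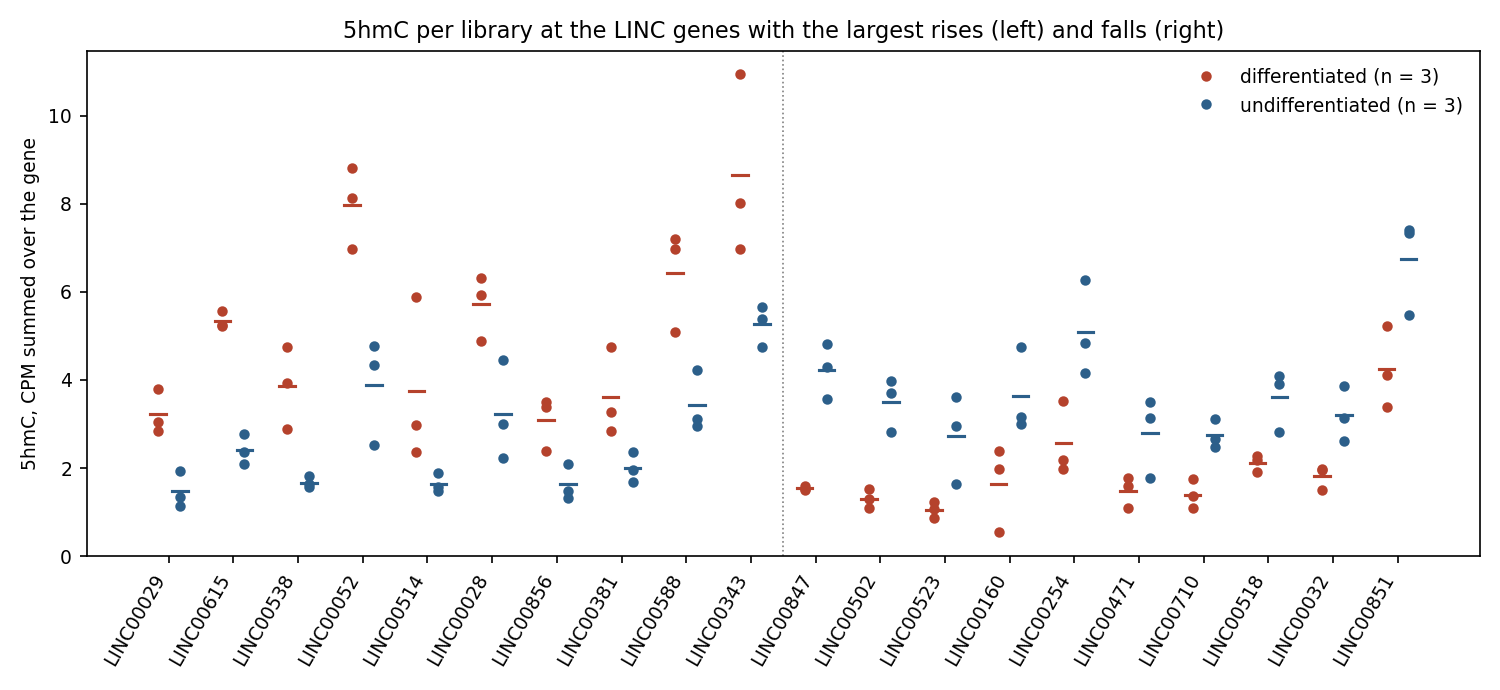
5hmC of each library in TMM-scaled CPM summed over the gene (vertical axis) for the 10 LINC genes with the largest called rises (left of the dotted line) and the 10 with the largest called falls (right) whose libraries do not overlap; points are libraries (red differentiated, blue undifferentiated, n = 3 each) and bars are means. All 20 genes lie below 11 CPM, and LINC00847 has the narrowest differentiated group.

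LINC00029, which RefSeq places between BHLHE23 and YTHDF1, had 2.85, 3.05 and 3.80 CPM in differentiated cells, against 1.14, 1.93 and 1.33 CPM in undifferentiated cells, and rose by 1.24 ± 0.27 (SE) on the log2 scale, with an adjusted p of 0.00206. Its only region, 20:61668201-61669200, also carries the symbol LOC63930, so the signal cannot be assigned to 1 of the genes. LINC00615 had 5.57, 5.23 and 5.25 CPM in differentiated cells, against 2.08, 2.77 and 2.37 CPM in undifferentiated cells (log2 fold change 1.18 ± 0.20). LINC00538, between RPS6KC1 and the developmental transcription factor gene PROX1, had 4.75, 3.92 and 2.89 CPM in differentiated cells and 1.82, 1.57 and 1.63 CPM in undifferentiated cells (1.11 ± 0.26). Each differentiated library was higher than each undifferentiated one, as the choice of these genes required. The other 7 of the 10 largest rises, LINC00052, LINC00514, LINC00028, LINC00856, LINC00381, LINC00588 and LINC00343, had log2 fold changes between 0.79 and 0.98.

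The largest falls were found at LINC00847, LINC00502 and LINC00523. LINC00847, which overlaps the zinc finger gene ZFP62 in RefSeq, had 1.49, 1.53 and 1.60 CPM in differentiated cells, against 3.56, 4.82 and 4.30 CPM in undifferentiated cells (log2 fold change −1.40 ± 0.24, adjusted p = 0.000475). LINC00502 had 1.09, 1.31 and 1.52 CPM in differentiated cells and 3.70, 3.97 and 2.82 CPM in undifferentiated cells (−1.39 ± 0.26). LINC00523, beside the imprinted gene DLK1, had 1.22, 0.872 and 1.07 CPM in differentiated cells and 2.96, 3.61 and 1.63 CPM in undifferentiated cells (−1.38 ± 0.32). LINC00160, next to RUNX1, which encodes a transcription factor of blood cell development, had 0.543, 2.40 and 1.98 CPM in differentiated cells and 3.16, 3.01 and 4.74 CPM in undifferentiated cells (−1.10 ± 0.34). By the same choice the differentiated libraries of these 4 genes were below every undifferentiated one, and each gene rests on 1 region of at most 600 bases. Their differentiated levels rest on few reads in some libraries, so the sizes of these falls are imprecise. Falls of LINC00254, LINC00471, LINC00710, LINC00518, LINC00032 and LINC00851 lay between −0.74 and −1.03. Of the 20 genes in the plot of the largest changes, 10 lost their call in at least 1 alternative: LINC00028, LINC00514, LINC00381, LINC00343, LINC00856, LINC00032, LINC00160, LINC00471, LINC00518 and LINC00710.

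Among 12 LINC genes listed for a reported role or expression in blood cells, 5 had a 5hmC region, of which 1 rose, 1 fell and 3 did not pass, a called share of 40% against 50.1% of all genes. LINC00173, which has been reported to act in human granulocyte maturation, fell: it had 4.89, 5.23 and 4.49 CPM in differentiated cells, against 7.60, 7.35 and 9.04 CPM in undifferentiated cells (log2 fold change −0.73 ± 0.17, adjusted p = 0.00294). The states did not overlap at this 800-base region (12:116973001-116973800). LINC00265 rose by a small margin, with 71.7 ± 1.64 CPM in differentiated and 63.5 ± 3.27 CPM in undifferentiated cells (SD, n = 3 each; log2 fold change 0.16 ± 0.06, adjusted p = 0.0319), and its call was lost in 5 alternatives, among them DESeq2 and library totals. LINC00467 had means of 21.6 CPM in differentiated and 26.1 CPM in undifferentiated cells and did not pass (adjusted p = 0.0524), except with library totals, where it passed as a fall (adjusted p = 0.0411). LINC00305 and LINC00861 did not pass either.

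Both measured members of the list of 8 loci later found to encode a small protein rose, with 24.3% of all genes called higher. With 2 genes measured, the list does not describe such loci in general. RefSeq lists 10 of the measured LINC genes as protein coding, of which 7 rose, 2 fell (LINC00634, now SMIM45, and LINC00854, now CCDC200) and 1 did not pass (LINC00617, now TUNAR, log2 fold change 0.05, adjusted p = 0.762), a grouping made after their values were seen. LINC00116 is now named MTLN and encodes mitoregulin, a peptide of mitochondria. It had 14.9, 15.7 and 12.7 CPM in differentiated cells, against 8.88, 9.63 and 8.00 CPM in undifferentiated cells (log2 fold change 0.66 ± 0.13, adjusted p = 0.00128). LINC00675, now TMEM238L, had 10.0, 12.6 and 9.74 CPM in differentiated cells and 7.26, 6.62 and 7.71 CPM in undifferentiated cells (0.54 ± 0.15, adjusted p = 0.00854). At either gene every differentiated library was above every undifferentiated one, and both regions of LINC00675 also carry another symbol.

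Of 25 LINC genes listed for a reported role in cancer, 14 were measured: 3 rose, 1 fell and 10 did not pass, a called share (28.6%) below that of all genes. LINC00473, a cyclic AMP-responsive lincRNA that overlaps PDE10A in RefSeq, had 44.4, 53.8 and 43.1 CPM in differentiated cells, against 32.9, 35.6 and 27.0 CPM in undifferentiated cells (log2 fold change 0.52 ± 0.10, adjusted p = 0.00087). LINC00707 had 39.1, 42.9 and 38.8 CPM in differentiated cells and 30.3, 31.1 and 34.4 CPM in undifferentiated cells (0.33 ± 0.07). At both genes the states did not overlap. LINC00299, which lies beside ID2, a gene for an inhibitor of helix-loop-helix factors, rose by 0.20 ± 0.06, a call that was lost without the first undifferentiated library (adjusted p = 0.106). LINC00518, a lincRNA measured in melanoma tests, fell to 2.12 ± 0.198 CPM in differentiated cells, against 3.60 ± 0.689 CPM in undifferentiated cells. LINC00152 (CYTOR), which is raised in many tumours, had 43.2 ± 2.53 CPM in differentiated and 41.9 ± 1.14 CPM in undifferentiated cells (adjusted p = 0.836).

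LINC genes with many regions held called regions of both directions as often as other genes did. Of the 61 LINC genes with 5 or more regions, 43 (70.5%) had called regions both higher and lower, as did 70.7% of the 9053 such genes of all kinds. Called regions were only higher in 12 (19.7%, against 10.7% of all) and only lower in 2 (3.3%, against 17.6% of all), and 4 had none called. LINC00340 (CASC15), a susceptibility locus of neuroblastoma at 6:21667401-22181400, had the most regions, 88, of which 14 rose and 30 fell. Their log2 fold changes ran between −1.18 and 1.53 with a median of −0.33, while the sum over the gene was 485.4 ± 20.6 CPM in differentiated and 507.9 ± 8.39 CPM in undifferentiated cells (−0.07 ± 0.05, adjusted p = 0.294). LINC00669 (MIR924HG), at 18:36799601-37320000, had 65 regions, of which 28 rose and 7 fell. Its sum had 364.6, 432.4 and 376.3 CPM in differentiated cells, against 297.6, 312.6 and 309.5 CPM in undifferentiated cells (0.35 ± 0.06), with no overlap between the states. It also held the region with the largest rise of all LINC regions, 18:36833801-36834200, with 1.24, 1.43 and 1.03 CPM in differentiated and 0.38, 0.0965 and 0.181 CPM in undifferentiated cells (2.19 ± 0.37). The undifferentiated levels of this region rest on very few reads, so the size of its rise is imprecise.

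**Figure D3:**
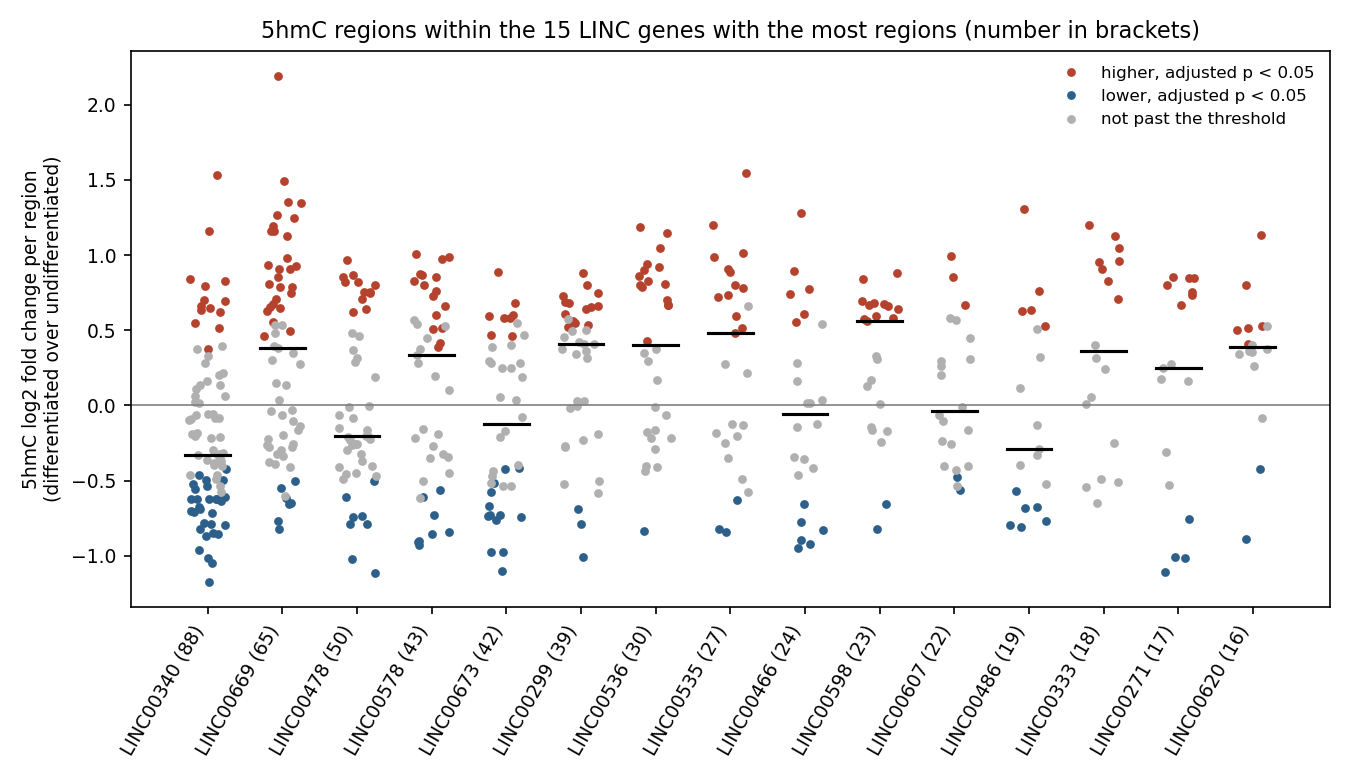
5hmC log2 fold change of each region, differentiated over undifferentiated (vertical axis), in the 15 LINC genes with the most regions (number in brackets); red regions are higher and blue lower at an adjusted p under 0.05, grey did not pass, and bars are medians. Called regions of both directions stand in nearly every gene, and LINC00333 is the gene shown without a called fall.

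Other genes with many regions differed in how far they tilted. LINC00478 (MIR99AHG), the host of a microRNA cluster on chromosome 21, had 12 of 50 regions higher and 8 lower, and its sum of 248.6 ± 10.4 CPM in differentiated and 229.2 ± 8.35 CPM in undifferentiated cells did not pass (adjusted p = 0.0813). LINC00673, between SOX9 and SLC39A11, had 8 of 42 regions higher and 13 lower, with a sum that did not pass (0.03 ± 0.06). LINC00578 had 16 of 43 regions higher and 8 lower and its sum rose, with 217.7 ± 4.55 CPM in differentiated and 187.3 ± 9.01 CPM in undifferentiated cells (0.22 ± 0.05). LINC00536 had 15 of 30 higher and 1 lower, LINC00598, next to FOXO1, 12 of 23 higher and 2 lower, and LINC00333 8 of 18 higher and none lower. These 3 were singled out after their values were seen, as was LINC00457, beside NBEA on chromosome 13, with 9 of 15 regions higher and 1 lower. The LINC00457 sum had 93.4, 87.0 and 85.4 CPM in differentiated cells, against 61.5, 65.3 and 60.5 CPM in undifferentiated cells (0.50 ± 0.06, adjusted p = 3.37e-05).

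LINC regions of different chromosomes differed in direction. On chromosome 13, which held 157 of them, 63 rose and 19 fell, while 31.3% of all regions of that chromosome were called higher and 19.7% lower. The median log2 fold change was 0.30, against 0.0024 over all its regions. On chromosome 3 the LINC median was 0.36 against −0.09 for all regions, where LINC00578 alone held 43 of the 85 LINC regions. On chromosome 18 it was 0.38 against 0.17, where LINC00669 alone held 65 of the 77 LINC regions. On chromosome 6, 31 of 128 rose and 36 fell (28.7% and 22.6% of all its regions did), with a LINC median of −0.17 against −0.05, and LINC00340 alone held 88 of these regions. The LINC median was also below that of all regions on chromosome 1 (−0.15 against −0.05) and chromosome 21 (−0.10 against 0.05). On chromosome 21, LINC00478 alone held 50 of the 95 LINC regions. Regions of 1 gene are not independent, so these medians are descriptions.

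Changes in the genes were compared with those of the surrounding DNA. Intergenic regions whose nearest gene was the LINC gene, at up to 50000 bases, were summed for 180 genes and fitted together with the gene sums. Across these genes the log2 fold changes of body and flank had a Pearson r of 0.229 and a Spearman rho of 0.267, and 119 of 180 had the same sign. Across the 78 genes with 3 or more regions in both parts r was 0.413 and rho 0.369, and 53 had the same sign. Body and flank come from the same libraries and share their scaling, and genes are not independent, so these values describe the plot only. Over the 180 genes, body and flank both rose at 35, both fell at 11 and were called in opposite directions at 13, among them LINC00523 (−1.38 in the body against 0.27 in the flank), LINC00160 (−1.10 against 0.40), LINC00116 (0.66 against −0.80), LINC00710 (−0.83 against 0.48) and LINC00851 (−0.74 against 0.45), each with a single body region. In the set of 78, body and flank both rose at 19 genes, both fell at 5 and were called in opposite directions at LINC00263 and LINC00499. Body against flank was 0.28 against −0.34 for LINC00263 (OLMALINC) and 0.36 against −0.54 for LINC00499 on the log2 scale. Taken alone, flanks rose at 75 and fell at 24 of the 180 genes, and rose at 29 and fell at 11 of the 78. Among all 17716 genes, 24.3% of sums rose and 25.8% fell. Body and flank were not compared for other genes. The joint counts were therefore not tested against what these separate rates would give. The difference between body and flank was not tested.

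**Figure D4:**
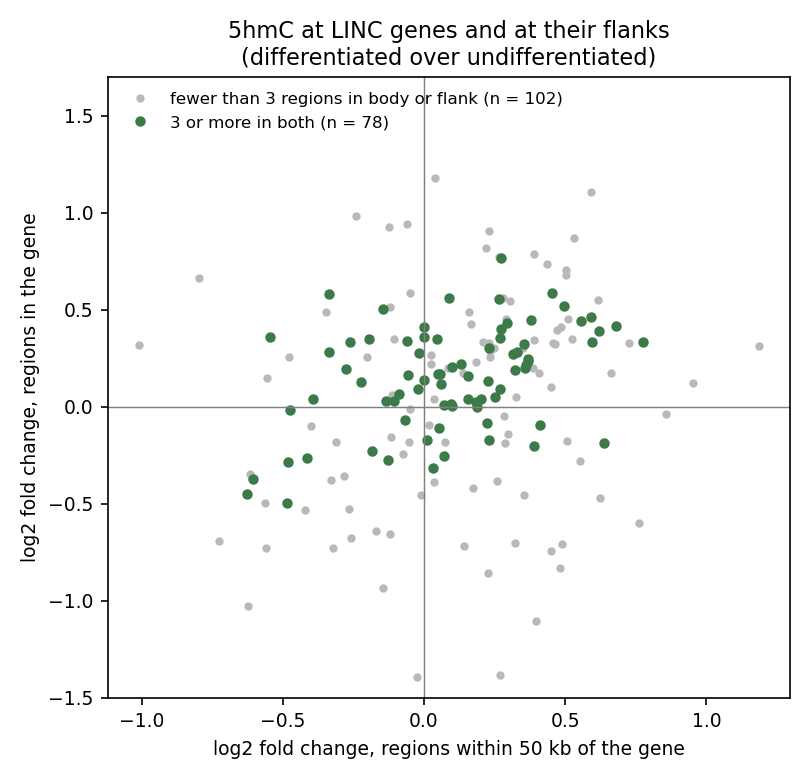
5hmC log2 fold change (differentiated over undifferentiated) of the regions inside each LINC gene (vertical axis) against that of intergenic regions within 50 kb of it (horizontal axis); each point is a gene. Green genes have 3 or more regions in both (n = 78, r = 0.413), grey genes fewer (n = 102).

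The 5mC table holds only regions that the authors' own test placed nearest to a difference between the states, so the called share says nothing of the genome at large, and only the listed regions are described. Adjusted p-values were taken over the 328588 tests that the deposited p-values imply. Among the 221 listed LINC regions 99 rose, 57 fell and 65 did not pass. Of all listed regions 72.7% were called, 35.7% as higher and 37.0% as lower, against 44.8% higher and 25.8% lower at LINC regions. The median log2 fold change was 0.44 at LINC regions, 0.22 over all listed regions and −0.36 in the bodies of other genes. Quartiles were −0.58 and 0.61 at LINC regions and −0.67 and 0.55 over all listed regions. These medians therefore follow which direction holds more regions and are not typical changes. Higher values were seen at 62% of LINC regions, 50.1% of all listed regions and 47.4% of those in other gene bodies. With library totals in place of TMM, 7 LINC regions rose and 84 fell. The LINC median then stood 0.22 above that of all listed regions, as it did with TMM scaling, an offset with the same limit as the medians. Both scalings were computed over the listed regions alone, which had been chosen for a difference. Neither therefore sets a firm zero, and the 5mC directions given here are those under TMM scaling. DESeq2 called 8 (6 higher, 2 lower), against 156 by edgeR. Rises and falls over all listed regions were not counted with library totals or DESeq2. Without the second differentiated library 87 were called, and without undifferentiated replicates 1, 2 and 3 in turn 95, 93 and 99. All 6 listed LINC regions in a CpG island rose, and 69% of the 925 island regions in all gene bodies did.

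**Figure D5:**
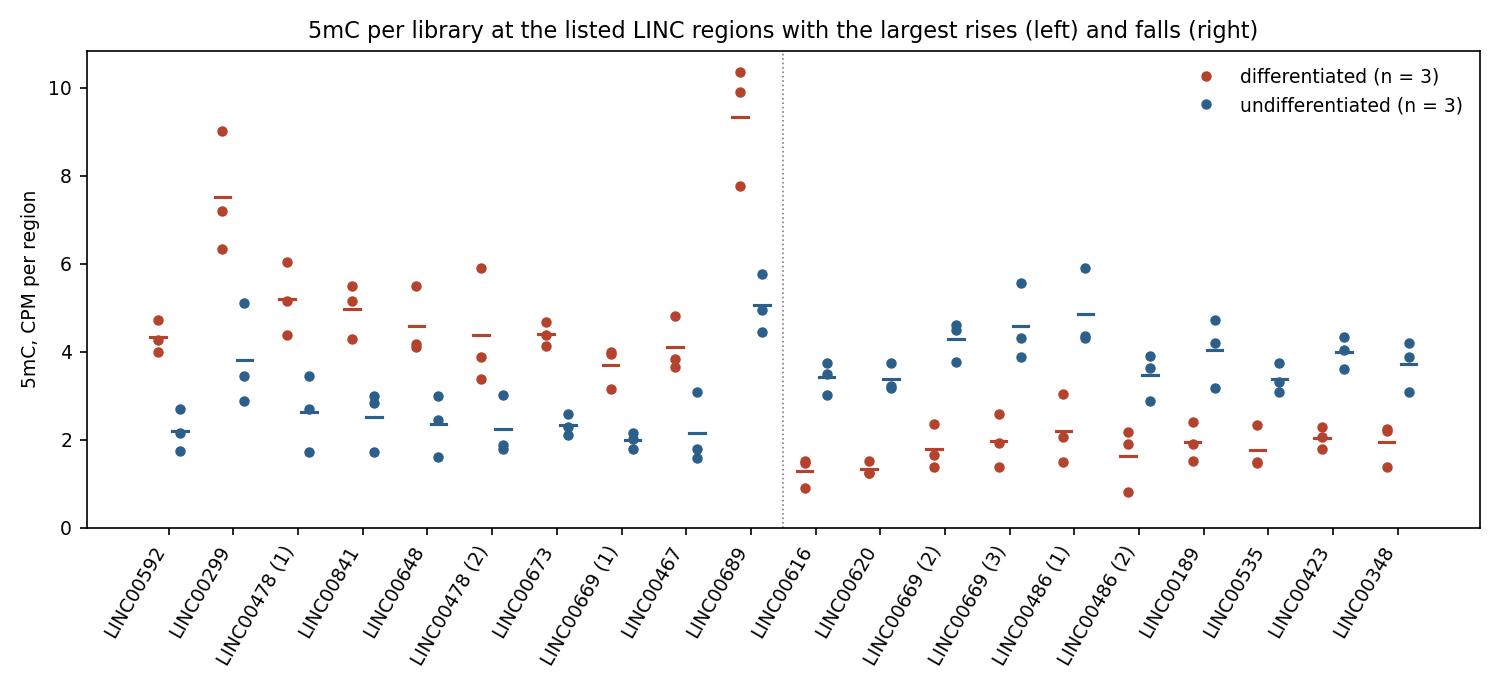
5mC of each library in TMM-scaled CPM per region (vertical axis) at the 10 listed LINC regions with the largest called rises (left of the dotted line) and the 10 with the largest called falls (right) whose libraries do not overlap; numbers in brackets tell regions of the same gene apart, points are libraries (red differentiated, blue undifferentiated, n = 3 each) and bars are means. LINC00689 has the highest differentiated mean, 9.35 CPM, and LINC00669 appears on both sides.

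The listed region with the largest rise in 5mC lay at the start of LINC00592 (12:52605001-52605600), a gene between KRT80 and KRT7 in the keratin cluster. It had 4.73, 4.26 and 4.002 CPM in differentiated cells, against 1.75, 2.70 and 2.16 CPM in undifferentiated cells (log2 fold change 0.98 ± 0.26, adjusted p = 0.00567). In LINC00299 the region 2:8184601-8185600 had 9.01, 6.33 and 7.20 CPM in differentiated and 5.12, 3.45 and 2.88 CPM in undifferentiated cells (0.97 ± 0.20). The largest fall was at LINC00616, with 1.46, 1.51 and 0.915 CPM in differentiated cells, against 3.502, 3.76 and 3.03 CPM in undifferentiated cells (−1.40 ± 0.31). LINC00669 held 2 of the 10 largest falls, −1.24 ± 0.27 at 18:36900401-36900800 and −1.21 ± 0.26 at 18:36937401-36937800, and 1 of the 10 largest rises, 0.90 ± 0.27 at 18:37091601-37092200. LINC00478 held 2 of the largest rises and LINC00486 2 of the largest falls. The 20 regions were chosen among those with no overlap between the states. Such separation was found at 114 LINC regions upward and 73 downward, and at 86.1% of all listed regions (43.1% upward and 43.0% downward). The alternatives were not followed for single 5mC regions. Over all listed LINC regions, DESeq2 called fewer rises and fewer falls than are named here, and library totals fewer rises. Not all of these 20 calls therefore hold in those alternatives.

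Regions of the marks coincided in part. Of the 221 listed 5mC LINC regions 133 (60.2%) overlapped a 5hmC LINC region by at least 1 base, and these were 134 (11.9%) of the 5hmC LINC regions. Over the whole tables the shares were 67.8% of 5mC and 14.3% of 5hmC regions. The marks were measured on the same DNA preparations, so their changes are given side by side only. At the LINC00592 start, 5hmC (12:52604601-52605800) was 7.35 CPM in differentiated and 4.77 CPM in undifferentiated cells (log2 fold change 0.59 ± 0.15, adjusted p = 0.00124) beside the 5mC rise of 0.98. This 5hmC region also carries another symbol. At the CpG island start of LINC00668, whose window above holds 20 CpG sites, 5hmC was 4.29 ± 0.334 CPM in differentiated and 2.69 ± 0.49 CPM in undifferentiated cells (0.68 ± 0.16) and 5mC was 3.97 ± 0.554 CPM in differentiated and 2.32 ± 0.554 CPM in undifferentiated cells (0.75 ± 0.26). The window of LINC00441 holds 48 CpG sites, and 5hmC of the region at its start (13:48876801-48877400) was 1.81 ± 0.609 CPM in differentiated and 2.09 ± 0.193 CPM in undifferentiated cells, a difference that did not pass (adjusted p = 0.246).

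LINC00620, between FBLN2 and WNT7A on chromosome 3, had called regions of both directions for both marks. Its 5hmC sum had 246.7, 244.5 and 236.8 CPM in differentiated cells, against 192.6, 196.9 and 191.7 CPM in undifferentiated cells (0.32 ± 0.05), with 6 of 16 regions higher and 2 lower. At its start the log2 fold change was 0.51 ± 0.18 for 5mC (3:13692601-13694200) and 0.53 ± 0.17 for 5hmC (3:13692801-13694000). At 3:13715001-13716000, 5mC fell by 0.59 on the log2 scale, while 5hmC of the overlapping region 3:13715001-13717200 rose by 0.41. At 3:13762401-13762800 both were lower, 5mC with 1.24, 1.51 and 1.26 CPM in differentiated cells, against 3.23, 3.76 and 3.17 CPM in undifferentiated cells (−1.34 ± 0.31), and 5hmC with a log2 fold change of −0.89 ± 0.26.

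Of the 92 LINC genes measured for both marks, 41 had a called 5mC region and a called 5hmC sum. Over all genes 50.1% of 5hmC sums were called, and 72.7% of all listed 5mC regions. The count of 41 was not compared with other genes. Among the 41, the 10 with the largest product of the changes were LINC00523, LINC00847, LINC00254, LINC00339, LINC00620, LINC00841, LINC00669, LINC00674, LINC00282 and LINC00599. At LINC00847 and LINC00523, whose 5hmC sums fell, a separate 5mC region rose, by 0.57 ± 0.20 and 0.64 ± 0.23, and the 5mC region of LINC00847 also carries the symbol HEIH. At LINC00254 and LINC00339 the 5mC region fell by 0.48 and 0.63. LINC00674 had 24.6, 22.4 and 27.5 CPM of 5hmC in differentiated cells, against 37.1, 35.5 and 34.5 CPM in undifferentiated cells (−0.50 ± 0.08), and its 5mC region a log2 fold change of −0.84 ± 0.18. LINC00841 had a 5hmC sum of 32.0 ± 4.89 CPM in differentiated and 24.3 ± 0.72 CPM in undifferentiated cells and a 5mC rise of 0.97. The 5hmC rise of LINC00599 (0.56 ± 0.09) came from a CpG island region shared with the microRNA gene MIR124-1 (LINC00599/MIR124-1, 0.84 ± 0.15). With shared regions left out, LINC00599 had a log2 fold change of −0.52 that did not pass (adjusted p = 0.104).

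A single region that carries the symbol LINC00861 held a large part of the counts. The gene lies between TRIB1 and LRATD2 on chromosome 8, and this 5hmC region spans 481400 bases (8:126710801-127192200). How much of the region lies outside the gene was not determined, nor was the copy number of the locus. Its signal can therefore not be assigned to the gene alone. On the scale of gene sums, its level was 4448, 6136 and 5759 CPM in differentiated cells and 6042, 6110 and 5647 CPM in undifferentiated cells, overlapping between the states (log2 fold change −0.12 ± 0.09, adjusted p = 0.28), and it passed as a fall when the second differentiated library was left out. On the different scale of single regions, it had 4.82 CPM per kilobase, against a median of 2.56 CPM over LINC regions. The listed 5mC region of LINC00861, 199000 bases long (8:126810201-127009200), fell, with 1543 ± 206.1 CPM in differentiated and 2077 ± 131.5 CPM in undifferentiated cells (−0.43 ± 0.06, adjusted p = 4.23e-09). These 5mC levels are on the region scale of that mark and cannot be set against the 5hmC levels above. LINC regions took 0.472% ± 0.0349 of the 5hmC counts in differentiated and 0.533% ± 0.0174 in undifferentiated cells (SD, n = 3 each; exact permutation p = 0.1, two-sided, the smallest that 3 against 3 libraries allow). Without LINC00861 the shares were 0.265% ± 0.00822 in differentiated and 0.273% ± 0.00319 in undifferentiated cells (exact permutation p = 0.2). Of listed 5mC counts they took 0.301% ± 0.0168 in differentiated and 0.395% ± 0.013 in undifferentiated cells, and without LINC00861 0.160% ± 0.00106 in differentiated and 0.168% ± 0.000367 in undifferentiated cells (exact permutation p = 0.1 for both). The 5mC regions had been listed for a difference between these same libraries, so the 5mC shares and their p-values are descriptions only.

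For comparison, 14 of 25 listed lncRNA genes with names of their own were measured for 5hmC. FTX, HOTAIR, MEG3 and TINCR rose, 3 fell and 7 did not pass, a called share of 50% with a median log2 fold change of 0.15, against 53.2% and 0.16 for the LINC genes.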

How the data were processed

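The deposited data hold a table per mark of enriched regions with raw read counts for 6 libraries, on GRCh37 (hg19) coordinates. The submitters' processing notes name BWA, SAMtools 0.1.18, bedtools 2.17.0, SICER 1.1 and edgeR 2.11, without a role for each; the version of BWA and whether regions were called on pooled libraries are, in the sources used here, not given. Per region the authors also deposited a log2 fold change, a mean log2 CPM, a p-value and an adjusted p-value, of which only the p-values were used here. The deposited 5mC p-values end at 0.0165 and the adjusted ones at 0.0826, which implies 328588 tests for 65535 listed regions. Its p-values were therefore adjusted over that number, which leaves the selection itself uncorrected, and 5mC was not tested per gene.

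The tests were run with edgeR 4.0.16 under R 4.3.3 (filterByExpr, TMM, quasi-likelihood F test, threshold 0.05), after a test on simulated data; standard errors were derived from the F statistic. Each state had 3 biological replicates. For 5hmC, 18 regions without values and 30 of low counts were left out, and for 5mC 1 of low counts. A region that carries several symbols was counted for each gene. Promoter windows and neighbours are from RefSeq (GRCh38.p14): of 203 LINC genes 166 matched by symbol and 35 by an older symbol, and 146 had a window. Alternatives were library totals, DESeq2 1.42.0, no filter, a replicate block, LINC symbols alone and leaving out each library. The genes named are the 10 largest called rises and 10 largest called falls without overlap between the states (for 5hmC regions 5 and 5), the genes with the highest level or the most regions, those called in both marks and the listed genes. The members and lists were chosen with earlier results of these data known.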

Additional observations from a re-analysis of the deposited data

How the results depend on the processing

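The 5hmC counts of called LINC regions and genes stayed within 1.5 times of the 573 regions and 107 genes with library totals (533 and 107), no filter (573 and 107) and LINC symbols alone (552 and 98). DESeq2 called 226 regions (176 higher, 50 lower) and 74 genes (57 higher, 17 lower), with no such split counted over all regions or genes. Leaving out each library in turn gave between 358 and 602 regions and between 66 and 114 genes. For the 156 listed 5mC regions called, library totals gave 91, DESeq2 8, leave-one-out counts lay between 87 and 107, LINC symbols alone gave 148, regions with a deposited adjusted p under 0.05 gave 155, and adjustment over the listed regions alone gave 221. The difference in the share of counts (differentiated minus undifferentiated, in percentage points) lay between −0.0776 and −0.0427 for 5hmC and between −0.0985 and −0.0838 for 5mC with each library left out; without LINC00861, an alternative added after the data were seen, it was −0.00842 and −0.00763. With an overlap of at least 50% of the 5mC region, 115 in place of 133 listed regions met a 5hmC region. The causes of these differences were not tested.

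The replicate numbers were not used to pair the libraries of the states. Same-numbered 5hmC libraries had correlations of −0.000177, −0.112 and −0.119 in their deviations from the state means, and 5mC libraries 0.0113, 0.00583 and −0.01. Differently numbered libraries lay between −0.0304 and 0.114 for 5hmC and between −0.0237 and 0.0177 for 5mC. These correlations cannot show whether the cultures were paired. With a replicate block, 490 regions and 88 genes were called for 5hmC and 155 listed regions for 5mC, and 1 of the 49 named genes, LINC00471, lost its call.

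Of the 49 named genes, 44 kept their direction and their side of the threshold with DESeq2 and 45 with library totals. Changes of sign were seen at LINC00599 with LINC symbols alone (−0.52), at LINC00152 (−0.0067) and LINC00673 (−0.014) with library totals, and, with each library left out in turn, at genes that had not passed: LINC00152 lay between −0.0036 and 0.073, LINC00305 between −0.035 and 0.14, LINC00313 between −0.023 and 0.302, LINC00319 between −0.037 and 0.201, LINC00520 between −0.0698 and 0.26, LINC00673 between −0.027 and 0.073, and LINC00861 between −0.21 and 0.0033.

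The median LINC region held 35.8 5hmC reads per library, which limits the precision at single regions.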
